A study of Canis lupus familiaris with 26 samples.

Results

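IGF2, IGFBP4 and PEG3 are 3 of the 18466 genes counted in laser-captured stroma of canine simple mammary adenoma, a benign and well-demarcated epithelial tumour of the mammary gland. They were picked as a set because earlier analyses of these counts had found all of them higher in adenoma-associated stroma (AAS) than in normal stroma. Their difference between the tissues is therefore described without a test. The files list them as ENSCAFG00000010090 (IGF2), ENSCAFG00000016071 (IGFBP4) and ENSCAFG00000029153 (PEG3), with counts made on transcripts of the CanFam3.1 build. All 3 passed the filter on low counts, mostly through AAS. Of 12 samples per tissue, 10 or more counts were held by 3 normal stroma and 10 AAS samples for IGF2. For IGFBP4 these were 4 and 10 samples, and for PEG3 6 and 10.

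IGF2 encodes insulin-like growth factor 2, a secreted growth factor that acts mainly through the receptor IGF1R and is cleared by IGF2R. IGFBP4 encodes a secreted binding protein that holds IGFs away from their receptors, and the protease PAPPA releases them by cleaving it. PEG3 encodes a zinc finger protein. IGF2 and PEG3 are imprinted in mammals, which means that in most tissues only the copy inherited from the father is transcribed.

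The 26 samples came from 13 female dogs aged 6 to 13 years at surgery. Their paraffin blocks had been stored for 4 to 29 months. Each dog gave 1 AAS sample, named cancer-associated stroma in the labels, and 1 sample of normal stroma taken beside unaltered glands on the same slides, so that both tissues come from an animal carrying an adenoma and no stroma of a tumour-free dog is included. Pair 14 was left out of the comparison for its low depth, which leaves 12 pairs. Total estimated counts ranged from 759119 to 1602797 in the 12 normal stroma samples and from 419770 to 1614120 in the 12 AAS samples. In the AAS sample of pair 7 a single gene took 84.9% of the counts and left 93673 for all others, so that its values rest on very few counts. Values are normalized CPM, the count per 1000000 counts of the library after TMM scaling. They carry no gene length, so that levels are not compared between genes. Before TMM scaling, 3 counts corresponded to 1.87 to 3.95 CPM in normal stroma and 1.86 to 7.15 CPM in AAS, a floor that covers counting error only. In the AAS sample of pair 7 a single count of IGF2 came to 9.34 normalized CPM. The fibroblast genes COL1A1, COL1A2, COL3A1, PDGFRA, VIM and THY1 were detected in all 24 samples, and DCN in all but 1 AAS sample. The epithelial genes EPCAM and CDH1 were also detected in all 24, with the sum of 3 measured epithelial markers at 90.3 to 237.8 CPM in normal stroma and 95.5 to 291.5 CPM in AAS. Their part in the results was not tested. In such bulk samples, fewer cells of a type and less RNA per cell cannot be told apart.

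IGF2, the growth factor, had few counts in normal stroma and the largest fitted fold change of the 3 genes, although the median difference within dogs was slightly larger for IGFBP4 (3.60 against 3.50 on the log2 scale). In normal stroma its lowest value was 0, its median 3.97 and its highest 15.0 CPM (4.87 ± 4.69, SD, n = 12). In AAS the lowest was 4.81, the median 143 and the highest 1628 CPM (260.4 ± 449, SD, n = 12). The normal values rest on few counts, with 0 in 3 samples (pairs 3, 4 and 15) and 3 or fewer in 6 of 12. In AAS, 10 of 12 samples lay above the highest normal sample, while the AAS samples of pair 3 (4.81 CPM) and pair 7 (9.34 CPM) overlapped the normal range.

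The growth factor was high in AAS of most dogs, but its amount was very uneven. The AAS sample of pair 6 held 1916 counts of IGF2, equal to 52.1% of the summed CPM of the group, and the 3 highest samples held 74.7%. It was followed by pair 5 with 450.4 CPM, pair 4 with 257.0 CPM and pair 15 with 206.3 CPM. At the other end stood pairs 12, 7 and 3, with 17.6, 9.34 and 4.81 CPM. Without pair 6 the AAS mean was 136 ± 134 CPM (SD, n = 11). The fitted log2 fold change over the 12 pairs was 5.61 (standard error 0.74). It was 4.83 (standard error 0.54) with the pair as a block and 4.64 (standard error 0.66) without pair 6, both smaller by more than 1.5 times on the linear scale.

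IGFBP4, the binding protein, was higher in AAS in 11 of 12 dogs. In normal stroma it ranged from 0 over a median of 4.36 to 19.6 CPM (6.29 ± 6.93, SD, n = 12). In AAS it ranged from 15.8 over a median of 54.7 to 216 CPM (73.9 ± 62.3, SD, n = 12). Its highest AAS sample, pair 13 with 320 counts, held 24.4% of the summed CPM, a smaller share than that of IGF2 in pair 6. Normal stroma had no count in pairs 4, 5, 6 and 15. The values of AAS exceeded the highest normal sample in 10 of 12 dogs, the exceptions being pair 3 (16.8 CPM) and pair 8 (15.8 CPM). Pair 8 was also the single pair with the opposite direction, at 19.6 CPM in normal stroma and 15.8 CPM in AAS (25 and 12 counts, a ratio of 0.81 with a 95% counting interval of 0.37 to 1.67). The log2 fold change was 3.48 (standard error 0.59).

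PEG3, the imprinted zinc finger gene, had the smallest fold change of the 3 and the most overlap between the tissues. Its normal values ran from 0 over a median of 12.9 to 65.0 CPM (17.8 ± 19.8, SD, n = 12), and its AAS values from 4.41 over a median of 83.8 to 152 CPM (86.2 ± 44.9, SD, n = 12). In AAS its highest sample, that of pair 5, held 14.7% of the summed CPM, the smallest such share of the 3 genes. Normal stroma was uneven, with no count in pairs 4, 6 and 8 but 72 and 77 counts in pairs 5 and 11. Of the AAS samples, 8 of 12 lay above the highest normal sample, while those of pairs 13 (62.2 CPM), 9 (54.0 CPM), 7 (28.0 CPM) and 12 (4.41 CPM) did not. The log2 fold change was 2.25 (standard error 0.58). For scale, 28 of the 4544 genes tested across the table, or 0.616%, were higher in AAS at an adjusted p below 0.05 and a log2 fold change above 1 (edgeR), and 0.638% with the pair as a block. The 3 genes were chosen from this contrast, so that no test of their own difference is given.

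**Figure D1:**
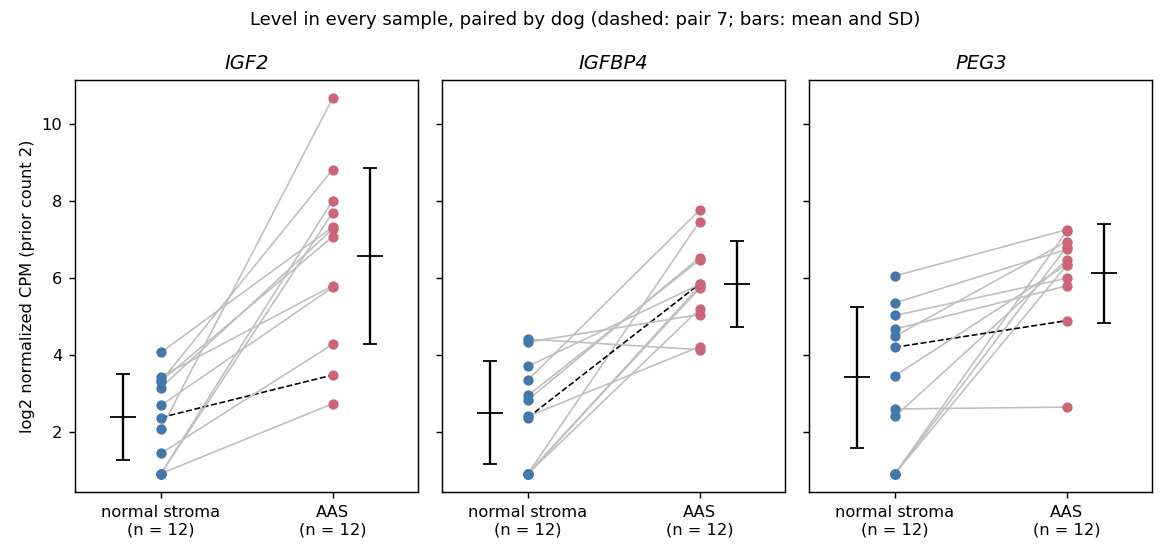
Log2 normalized CPM (prior count of 2) of IGF2, IGFBP4 and PEG3 in 12 normal stroma and 12 AAS samples, with a line for each dog and the mean and SD of each group as bars. IGF2 spreads most in AAS, where the sample of pair 6 stands highest, and the dashed line is pair 7, whose AAS library had few counts outside a single gene.

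Pair by pair, all 3 genes were higher in AAS in 11 of 12 dogs, and 2 of the 3 in the remaining dog, pair 8. The difference in log2 CPM had a median of 3.50 for IGF2 (1.10 to 8.58), 3.60 for IGFBP4 (-0.27 to 6.54) and 1.92 for PEG3 (0.05 to 6.30). Pair 6 had the largest difference for each gene, at 8.58, 6.54 and 6.30. All 3 differences reached 2 in pairs 4, 6 and 15. In these 3 dogs the normal stroma held at most 2 counts of IGF2, 0 of IGFBP4 and 9 of PEG3, so that each of these large differences started from a low normal value.

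Elsewhere the genes parted within a dog. In pair 8 PEG3 went from 0 to 111 CPM and IGF2 from 7.04 to 153 CPM, whereas IGFBP4 had the lower value in AAS. In pair 12 IGFBP4 went from 5.88 to 87.0 CPM, while PEG3 had 4.20 and 4.41 CPM (5 and 4 counts). In pair 3 PEG3 went from 3.43 to 87.3 CPM, while IGF2 had 4.81 CPM in AAS. In pair 5, IGF2 and IGFBP4 differed by 5.49 and 4.87 on the log2 scale and PEG3 by 1.20, from a normal value that was the highest of the group.

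Some of these directions rest on very few counts. The genes were chosen for higher values in AAS, so that the numbers of pairs given here are a description. The 95% counting interval of the ratio within a pair covers counting error only, not the variation between samples. It lay above 1 in 10 of 12 pairs for each gene. For IGF2 it included 1 in pair 3 (0 and 6 counts) and in pair 7 (2 counts in normal stroma and 1 in AAS, a CPM ratio of 2.81 with an interval of 0.048 to 53.9). For PEG3 it included 1 in pair 12 and in pair 7 (10 and 3 counts, a ratio of 1.68 with an interval of 0.30 to 6.54). In pair 7 the raw counts of IGF2 and PEG3 were lower in AAS, and the CPM values were higher after TMM scaling of that library. For IGFBP4 the pairs were 8 and 10 (16 and 9 counts, a ratio of 1.71 with an interval of 0.67 to 4.11).

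**Figure D2:**
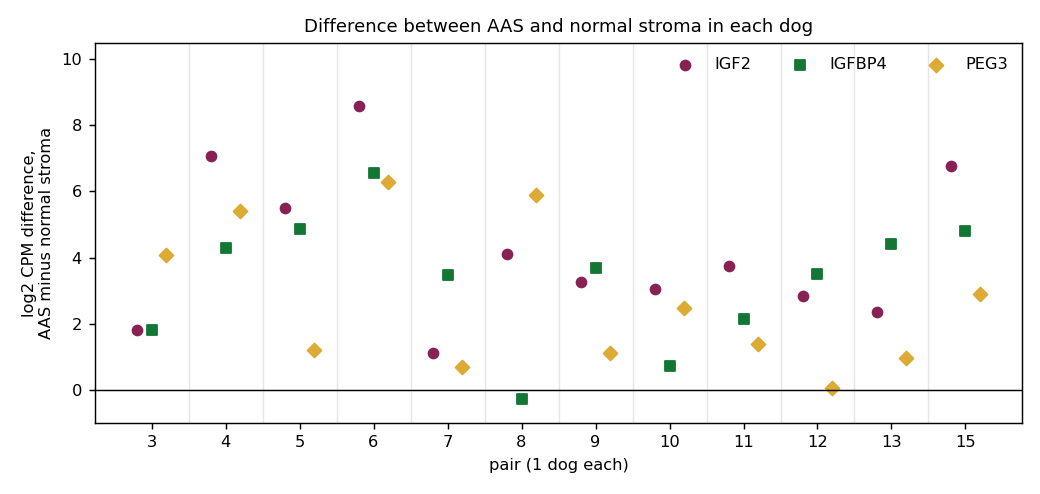
Difference in log2 CPM between AAS and normal stroma (AAS minus normal) for the 3 genes in each of the 12 dogs. Pair 6 has the largest difference for every gene, at 8.58 (IGF2), 6.54 (IGFBP4) and 6.30 (PEG3), and the point below 0 is IGFBP4 in pair 8.

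Whether the 3 genes varied together between dogs was asked within each tissue, which the choice of genes did not use. These relations were adjusted together with those of each gene's level in normal stroma against AAS, 9 in all, and none passed. IGF2 and PEG3 had the closest one in AAS, with Pearson's r = 0.56 over 12 samples (two-sided permutation test with 100000 resamples, p = 0.0603, adjusted p = 0.271). Spearman's rho was 0.49 (permutation p = 0.109). Leaving out the 2 samples farthest from the median of IGF2 gave r = 0.70. In normal stroma IGF2 and IGFBP4 each held 3 counts or fewer in 6 of 12 samples, and PEG3 in 4 of 12. Relations that involve normal stroma therefore rest largely on values at the floor, and their r is given as a description only. IGF2 and PEG3 had r = 0.58 there, and 0.44 without the 2 farthest samples. IGFBP4 in AAS had r = 0.31 with IGF2 (permutation p = 0.323, rho = 0.15, p = 0.635) and r = -0.22 with PEG3 (permutation p = 0.486, rho = -0.36, p = 0.245), both at an adjusted p of 0.640. Without the 2 farthest samples these were 0.083 and -0.19. A gene's level in normal stroma against its level in AAS of the same dog had r = 0.22 for IGF2, -0.23 for IGFBP4 and 0.040 for PEG3, and 0.099, 0.18 and 0.26 without the 2 farthest samples.

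**Figure D3:**
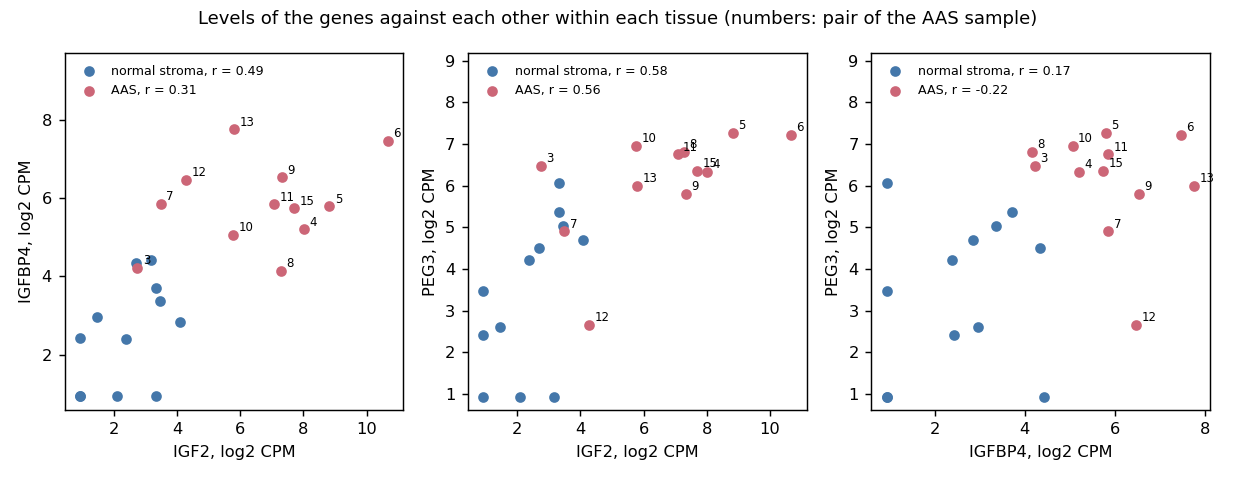
Log2 CPM of each pair of genes against each other in normal stroma (blue) and AAS (red), with Pearson's r within each tissue over 12 samples and the pair number beside each AAS point. IGF2 and PEG3 have r = 0.56 in AAS and 0.58 in normal stroma, where many values lie at the floor, and the AAS sample of pair 12 combines high IGFBP4 with the lowest PEG3.

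The age of the dog and the storage time of the block were compared with each gene in each tissue, 12 relations in all, and none passed after adjustment. The closest was PEG3 in normal stroma with the age of the dog (r = 0.60, permutation p = 0.0407, adjusted p = 0.489, rho = 0.58, permutation p = 0.0523), with r = 0.55 without the 2 farthest samples. The 4 samples with 3 counts or fewer, of pairs 3, 4, 6 and 8, are among those 12. They came from dogs aged 6 or 8 years, so that this r is given as a description only. With each pair left out in turn this r ran from 0.48 to 0.79. The highest was without pair 5 (permutation test, adjusted p = 0.0474), an 8-year-old dog with the highest PEG3 in normal stroma. No other omission gave an adjusted p below 0.05. In AAS the same relation had r = -0.20 (permutation p = 0.531, adjusted p = 0.904, rho = -0.34, p = 0.277), or -0.0044 without the 2 farthest samples, and the difference between the tissues was not tested. Storage time had r between -0.43 and 0.14 over the 3 genes and both tissues, with the lowest adjusted permutation p at 0.509. The total count of the AAS sample had r of 0.24 with IGF2, 0.37 with IGFBP4 and 0.089 with PEG3 (permutation p = 0.44, 0.231 and 0.816, adjusted p = 0.660, 0.660 and 0.816, with rho of 0.34, 0.37 and -0.12), and 0.35, 0.33 and 0.31 without the 2 farthest samples.

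Among markers of the cell types that a dissected area can hold, those of fibroblasts were lower in AAS, where the 3 genes were higher. The 7 measured fibroblast markers, among them the collagen genes COL1A1, COL1A2 and COL3A1, had a summed level of 2321 to 22311 CPM in normal stroma (median 5917) and 783 to 7824 CPM in AAS (median 2825), and the sum was lower in AAS in 10 of 12 pairs. DCN, a small matrix proteoglycan, fell from 605 ± 286 to 152 ± 170 CPM (SD, n = 12 each, log2 fold change -1.96, standard error 0.45, edgeR adjusted p = 0.00996), and VIM, the intermediate filament of mesenchymal cells, fell with a log2 fold change of -1.13 (edgeR adjusted p = 0.00419). The other 5 did not pass, and without pair 8 DCN was the single one called. With the pair as a block COL1A2 joined DCN and VIM (log2 fold change -1.44, edgeR adjusted p = 0.00204). Of all genes tested, 1.19% were called lower in AAS, and 1.89% with the block. Of the 2 measured leukocyte genes, CD74, the invariant chain of MHC class II that B cells and macrophages express, rose by a log2 fold change of 2.18 (standard error 0.38, edgeR adjusted p = 0.000347, higher in 12 of 12 pairs), and the macrophage receptor CD163 did not pass (log2 fold change -0.77, adjusted p = 0.656). Several marker sums were higher in AAS in most dogs, as the 3 genes were. The leukocyte sum was higher in 10 of 12 pairs (23.3 to 189.9 CPM, median 75.1, in normal stroma and 94.2 to 372.0 CPM, median 175.6, in AAS). Its 2 genes went opposite ways, with CD74 higher in 12 of 12 pairs and CD163 in 5 of 12. The sum therefore does not describe leukocytes as a whole. The sum of ACTA2 and ACTG2, the 2 measured myoepithelial and smooth muscle genes, was higher in 11 of 12 pairs (15.0 to 146 CPM, median 49.8, and 18.7 to 424 CPM, median 107.6). ACTA2 alone was higher in 10 of 12 pairs and ACTG2 in 6 of 12. The study reads ACTA2 (smooth muscle actin) as a sign of fibroblast activation in AAS, without excluding myoepithelial cells. This sum is therefore not specific to 1 cell type. The epithelial sum was higher in 8 of 12 pairs (median 154 and 216 CPM) and the endothelial sum in 5 of 12 (9.22 to 89.2 and 0 to 63.4 CPM). No single epithelial, myoepithelial or endothelial marker passed by edgeR or DESeq2. By edgeR 1 epithelial and 1 myoepithelial gene had an unadjusted p below 0.05, as did 477 of all 4544 genes. The part of these markers in the levels of the 3 genes was not tested between the tissues.

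Within AAS, none of 18 relations between the 3 genes and the summed markers of 6 cell types passed after adjustment. IGFBP4 had its closest relation with the fibroblast sum (r = 0.65, permutation p = 0.0212, adjusted p = 0.382, rho = 0.59, permutation p = 0.0452), with r = 0.55 without the 2 farthest samples. IGF2 had its closest one with the epithelial sum, in the negative direction (r = -0.47, permutation p = 0.119, adjusted p = 0.815, rho = -0.66, permutation p = 0.0241), with r = -0.66 without the 2 farthest samples. Most lists were measured by 1 to 3 genes, and the lone adipocyte marker LEP was at 0 in 9 of 12 AAS samples.

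None of the 5 other IGF system genes that could be tested passed. A list of 30 genes without IGF2 and IGFBP4 was used, of which 8 have an identifier in the readable parts of the symbol tables. Of these, 5 had enough counts to be tested. In edgeR 0 of the 5 were called in either direction, with or without the block, where 1.8% of all 4544 genes were, and 2.53% with the block. DESeq2 called 0 of the 5 and 134 of all 4544. By edgeR 1 of the 5 (IGFBP7) had an unadjusted p below 0.05, against 477 of all 4544. The 5 had a median log2 fold change of 0.39, against 0.0080 over all tested genes, and 3 were above 0. IGF1, IGF1R, INSR, IGFBP2 and IGFBP3 have no identifier in these readable parts and are not analysed here, which does not mean that they were not counted. The study itself names IGFBP2 among the genes that best separate normal stroma, AAS and carcinoma stroma.

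By role, the clearance receptor IGF2R had 12.0 ± 8.12 CPM in normal stroma and 15.2 ± 11.2 CPM in AAS (SD, n = 12 each), a log2 fold change of 0.39 (standard error 0.51, edgeR adjusted p = 0.907). Among the binding proteins, IGFBP5 had 126 ± 68.9 and 106 ± 108 CPM (log2 fold change -0.23, standard error 0.37, adjusted p = 0.933 by edgeR). IGFBP7, a relative with low affinity for IGFs, had 36.3 ± 34.7 and 93.4 ± 112 CPM (log2 fold change 1.37, standard error 0.54, adjusted p = 0.286 by edgeR), and the AAS sample of pair 3 held 34.2% of its group sum. Pair 3 is the dog with the lowest IGF2 in AAS. The protease HTRA1, which can cleave IGFBPs, had a log2 fold change of -0.52 (adjusted p = 0.700) and the receptor adaptor SHC1 one of 0.66 (adjusted p = 0.659). PAPPA, the protease of IGFBP4, was removed by the filter. It had 6.35 ± 7.08 CPM in normal stroma and 10.9 ± 9.09 CPM in AAS, with 0 counts in 3 and 2 of 12 samples, and was higher in AAS in 8 of 12 pairs. A fit with a looser filter, a mean count of 5 or more over the samples, gave it a log2 fold change of 0.75 (edgeR adjusted p = 0.875). GRB10 and IGF2BP3 had 0 counts in 9 and 10 of the 12 normal stroma samples.

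**Figure D4:**
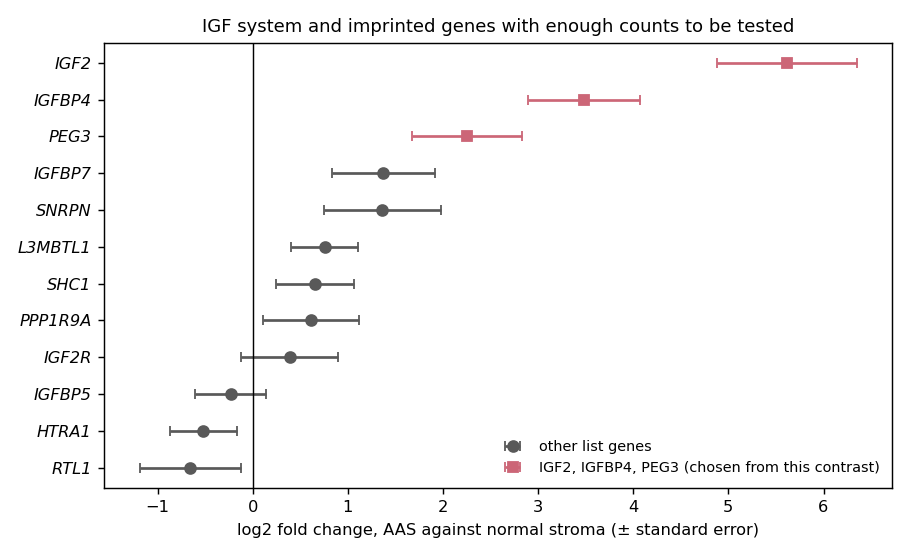
Log2 fold change (AAS against normal stroma, edgeR, with standard errors) of the 9 other IGF system and imprinted genes that could be tested, below IGF2, IGFBP4 and PEG3, which were chosen from this contrast. The 9 genes lie between -0.65 and 1.37 and none was called, against 5.61, 3.48 and 2.25 for the 3 chosen genes.

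Imprinted genes other than IGF2 and PEG3 were followed with a list of 30 genes imprinted in human or mouse, of which 11 have an identifier and 5 were tested. Of these 5, 0 were called by edgeR, which called 82 of all 4544 genes, and 0 by DESeq2 without the block, which called 134. By edgeR 2 of the 5 had an unadjusted p below 0.05, against 477 of all 4544. SNRPN, a paternally expressed splicing gene, had 6.32 ± 5.49 CPM in normal stroma and 17.2 ± 16.2 CPM in AAS (SD, n = 12 each, log2 fold change 1.36, standard error 0.62, edgeR adjusted p = 0.417). RTL1, a paternally expressed gene of retrotransposon origin, pointed the other way with 59.8 ± 31.9 and 36.4 ± 40.7 CPM (log2 fold change -0.65, edgeR adjusted p = 0.804), and only DESeq2 with the pair as a block called it lower (log2 fold change -1.48, adjusted p = 0.0248). ATP10A, a lipid flippase gene that the filter removed, was also lower in AAS, at 14.8 ± 9.33 CPM in normal stroma with counts in every sample and 4.32 ± 7.26 CPM in AAS with 0 counts in 4 of 12. The AAS value was the higher one in 2 of 12 dogs, and in the fit with the looser filter it did not pass (log2 fold change -1.69, edgeR adjusted p = 0.359, or 0.196 with the block). L3MBTL1 and PPP1R9A had log2 fold changes of 0.76 and 0.61 (edgeR adjusted p = 0.432 and 0.812).

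MEST and COPG2 were singled out after their values were seen, because they were high in some of the dogs with the most IGF2. MEST, a paternally expressed gene of the mesoderm, was removed by the filter. It had 0 counts in 11 of 12 normal stroma samples and in 6 of 12 AAS samples, and its 3 highest AAS values were 34.0 CPM in pair 6, 21.0 CPM in pair 15 and 19.6 CPM in pair 5. These are 3 of the 4 dogs with the highest IGF2 in AAS, the other being pair 4, where MEST had no count. COPG2, a coat protein gene whose imprinting differs between species, had 4.17 ± 4.98 CPM in normal stroma and 83.2 ± 163 CPM in AAS. Its highest AAS values were 526 CPM in pair 5 and 302.5 CPM in pair 6, both with 0 counts in the matching normal stroma, while in AAS of pairs 4 and 15 it had 5 and 0 counts. In the fit with the looser filter, where 1.97% of 7763 genes were called (0.824% higher and 1.15% lower in AAS), COPG2 passed (log2 fold change 4.26, standard error 0.84, edgeR adjusted p = 0.00172), but not with the block added (log2 fold change 2.53, adjusted p = 0.122). MEST and COPG2 overlap in the dog annotation UU_Cfam_GSD_1.0, another build than that of the counts, and whether the counting used strand is not given in the sources used here, so that reads of the 2 genes may not be separable. PEG3 followed this order only in part. Its highest AAS values were also in pairs 5 and 6 (152 and 148 CPM). The next was that of pair 10 (122 CPM, from 35 counts), where IGF2 stood at 52.5 CPM.

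**Figure D5:**
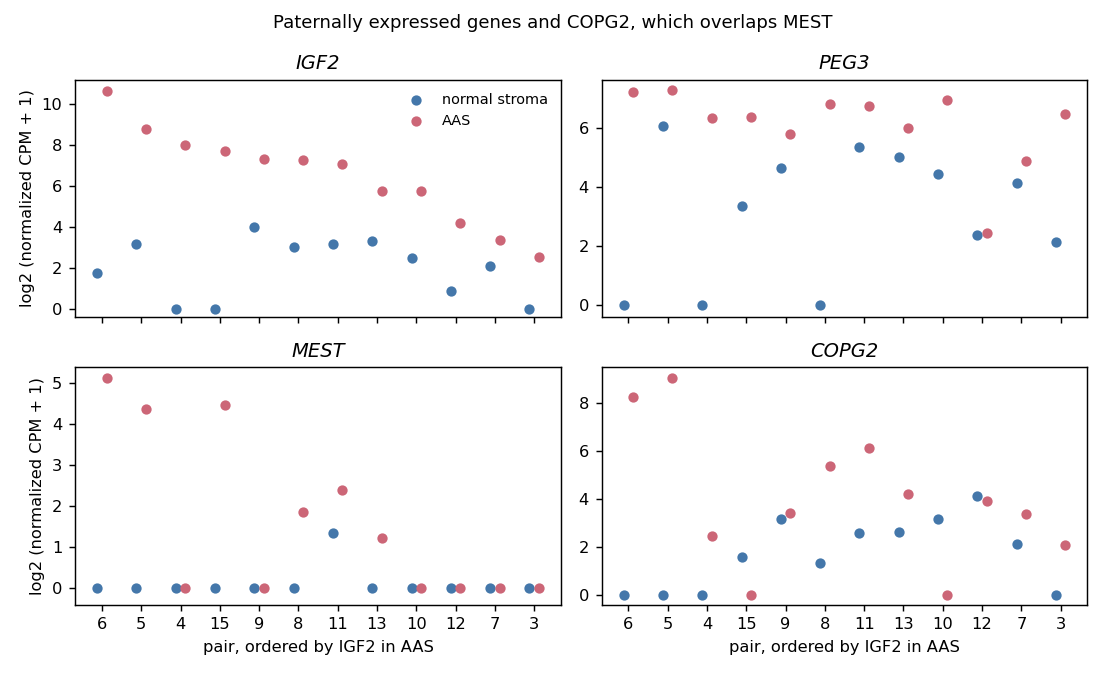
Log2 (normalized CPM + 1) of IGF2, PEG3, MEST and COPG2 in normal stroma and AAS of the 12 dogs, ordered by the level of IGF2 in AAS. MEST and COPG2 are high in AAS of pairs 6 and 5 at the left, where IGF2 is 1628 and 450.4 CPM, and MEST also in pair 15.

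Whether overlapping genes share reads with the 3 genes was not tested, and the only annotation used here is of another build. In UU_Cfam_GSD_1.0 the IGF2 locus overlaps a microRNA, MIR483, and a further predicted protein-coding gene, and its neighbours include H19 and INS. IGFBP4 overlaps a predicted long non-coding RNA and lies between TNS4 and TOP2A. PEG3 lies near ZIM2, without overlap in that annotation. Predicted genes lie nearer to IGF2 than H19 does, nearer to IGFBP4 than TOP2A and nearer to PEG3 than ZIM2.

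The genes with the pattern most like each of the 3 were ranked by Pearson's r of log2 CPM over all 24 samples among 1852 other genes with a symbol. These ranks are a description, since the 24 samples share the difference between tissues. IGF2 was closest to BGN (r = 0.83), a matrix proteoglycan, then KIAA1217 (0.79), IGFBP4 (0.76), TNIP1 (0.75) and PEG3 (0.75). IGFBP4 was closest to CD74 (0.78), IGF2 (0.76), ISCA2 (0.76) and the MHC class II genes HLA-DRB1 (0.74) and DLA-DRA (0.74), the last 2 from a multigene family, for which the assignment of reads between members was not examined. PEG3 was closest to KIAA1217 (0.80), IGF2 (0.75), DMKN (0.70), CDH11 (0.70), a cadherin of mesenchymal cells, and AFDN (0.69).

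With each group's mean subtracted over the 24 samples, PEG3 kept 2 of its 5 names (DMKN, r = 0.67, and KIAA1217, r = 0.62) and IGF2 and IGFBP4 kept 0. Within the 12 AAS samples alone, 0 of the 5 names remained for any of the 3 genes. IGF2 was then closest to CAST (r = 0.85), the calpain inhibitor, CDH16 (0.77), TIMM50 (0.76), FASTK (0.76) and CREB3L1 (0.76). IGFBP4 was closest to COL3A1 (0.77), a fibrillar collagen, ZNF350 (0.75), MAN1A1 (0.71), HMCN1 (0.70), a matrix protein, and F13A1 (0.69), a transglutaminase of macrophages. PEG3 was closest to RNF216 (0.94), PTGFR (0.88), LRRC46 (0.85), BRD2 (0.85) and KIN (0.85). Each list is the top of 1852 genes over 12 samples, where high r values can arise by chance, and none was tested. The lowest PEG3 in AAS stood apart, at a log2 CPM of 2.66 in pair 12 against 4.90 in pair 7, the next lowest. Its weight in these r values was not tested.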

How the data were processed

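RNA from laser-captured, formalin-fixed stroma was sequenced after a stranded total RNA library preparation. The authors quantified reads with kallisto 0.44.0 on Ensembl transcripts of CanFam3.1, summed them per gene with tximport and deposited estimated counts, not normalized and stored as whole numbers. Groups and pair numbers were taken from the sample titles. A pair is 1 dog, so that its samples are paired. Deviations from the group means correlated at 0.125 on average within pairs (-0.025 to 0.40) and at -0.0060 between pairs.

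Over 12 pairs, the 4544 genes that filterByExpr kept were scaled by TMM and fitted in edgeR 4.0.16 (R 4.3.3, quasi-likelihood F-test) without a block. A gene was called at a Benjamini-Hochberg adjusted p below 0.05 and a log2 fold change beyond 1. Standard errors are the log2 fold change divided by the root of F. Log2 CPM carries a prior count of 2. Correlations used permutation tests with 100000 resamples in Python 3.11.15 with numpy 2.4.6, adjusted within each family. Ratios within a pair have exact conditional binomial intervals. On counts simulated from these samples, the fit recovered 127 of 200 changed genes with 3 false calls among 4191. Of the genes changed by a log2 fold change of 3 in either direction, it recovered 72 of 94. The simulated counts carried no effect of the dog, so that these numbers do not cover the pairing.

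Gene symbols come from the readable parts of 2 supplementary tables of the study (3294 genes), the first sorted by this contrast, so that changed genes are over-represented among those with a symbol. Named genes are the 3 genes, the called or role-bearing genes of the fixed lists, and the 5 most like each of the 3. Genes, lists and alternatives were chosen with earlier results of these data known. Alternatives were the pair as a block, DESeq2 1.42.0 with and without it, RLE normalization, other filters on low counts, all 13 pairs, omission of pair 7 or of each pair, DV200 (an RNA integrity measure listed by the study under other case numbers, matched to pairs through breed, age and storage time) as a covariate, no fold change threshold, omission of the 10 highest genes, and other scalings of the correlations. Carcinoma data were not used here.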

Additional observations from a re-analysis of the deposited data

Results flagged for a closer look

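Pair 14 stood outside the main comparison for its low depth, with 83727 counts in normal stroma and 824086 in AAS. Its values were normalized over all 13 pairs. PEG3 was at 51.1 CPM in the AAS sample (51 counts), above the 14.8 CPM of its normal stroma (2 counts). IGFBP4 was at 18.0 CPM in AAS (18 counts) and 7.39 CPM in normal stroma (1 count). The main comparison left these samples out, and only the alternative with all 13 pairs used them. Neither difference within pair 14 was tested. IGF2 had 0 counts in both samples. Before TMM scaling this allows up to 3.64 CPM in the AAS sample and up to 35.8 CPM in the normal stroma sample, above every normal stroma value of the 12 pairs.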

How the results depend on the processing

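Each of the 3 genes stayed higher in AAS under every alternative that gave a value, with log2 fold changes of 4.79 to 5.80 for IGF2, 3.39 to 4.24 for IGFBP4 and 2.0 to 2.79 for PEG3, and of 4.64 to 5.82, 3.17 to 3.87 and 2.03 to 2.53 when each pair was left out in turn. With the replicate block they were 4.83, 3.79 and 2.65. With all 13 pairs, or without pair 9 or 11, the filter on low counts removed IGF2, which gave no value. The number of called genes was 82, and 71 to 99 without each pair. It was 115 with the replicate block, 134 with DESeq2, 227 with DESeq2 and the replicate block, 153 with a filter on a mean of 5 counts, 183 with that filter and the block (a setting chosen after seeing the data), and 1690 without a filter. In the IGF system 1 gene (IGFBP7) was called without a filter. Among imprinted genes 1 was called with DESeq2 and the block (RTL1), 1 with the mean of 5 counts (COPG2), 2 without a filter (MEST and COPG2) and 1 (COPG2) without the 4 smallest AAS libraries, pairs 7, 8, 10 and 15, also chosen after seeing the data. No list gene of either kind was called when any pair was left out. Of the relations with dog age and storage time, 0 to 1 passed when each pair was left out (PEG3 with age in normal stroma, without pair 5) and 2 without the 4 smallest AAS libraries. Both of these were of IGFBP4 in normal stroma, where 4 of the 8 samples then left held 3 counts or fewer, so that neither is read as a relation. The relation of IGFBP4 and PEG3 in AAS turned to r = 0.22 without scaling factors (permutation test, adjusted p = 0.710). The cause of these changes was not tested. Low counts limit the precision of IGF2 and IGFBP4 in normal stroma, where 6 of 12 samples held 3 counts or fewer of each.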
